A study of Homo sapiens with 20 samples.

Results

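The genes described here encode the core proteins of microRNA production and silencing: DROSHA and DGCR8, DICER1, the Argonautes AGO1 to AGO4 and the scaffolds TNRC6A, TNRC6B and TNRC6C. Every probe set annotated to exactly 1 of these 10 genes was taken, whatever its values, which gave 42 of the 50441 probe sets of the deposited table. They cover 9 of the 10 genes, because no probe set names DGCR8 alone. Of the 42 probe sets, 27 had a mean log2 level above 4.5 in at least 1 group and were tested, and the other 15 had group means between 2.19, the lowest value of the table, and 4.34. AGO2 has 4 probe sets, of which 3 are also listed under CASC7, a name that the RefSeq gene table gives as a synonym of AGO2. Only 225827_at names AGO2 in the platform annotation by itself, so the counts are given with and without the others.

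The study asked how mRNA levels change when ZFP36, a zinc finger protein that binds AU-rich RNA and promotes its decay, is overexpressed. HEK293 cells, a human embryonic kidney line, carried an EGFP-ZFP36 transgene under doxycycline control in the Flp-In T-REx system. Expression was profiled on 20 Affymetrix U133 Plus 2.0 arrays in 4 groups of 5. The groups were induced EGFP-ZFP36 cells, given 1 μg/ml doxycycline for 16 h, mock-induced EGFP-ZFP36 cells given water, parental HEK293 cells at that doxycycline dose and time, and parental cells treated with vehicle. Induced cells were sorted for green fluorescence and mock-induced cells for its absence, so doxycycline, fusion protein and sort gate went together in these 2 groups. According to the study's methods, induced flasks were also less confluent and held more rounded or floating cells. The methods also give different passage dilutions and growth times before treatment for EGFP-ZFP36 and parental cells. Line and culture therefore cannot be told apart where EGFP-ZFP36 cells are set against parental cells. The sources used here do not say whether the EGFP-ZFP36 line is 1 clone.

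The microRNA pathway runs from a primary transcript in the nucleus to a silenced mRNA in the cytoplasm. DROSHA, with its RNA-binding partner DGCR8, cuts the primary transcript to a hairpin precursor, and DICER1 cuts the exported precursor to a short duplex. An Argonaute keeps 1 strand of the duplex as its guide, and a TNRC6 (GW182) protein bound to the Argonaute recruits the deadenylases and decapping factors that silence the mRNA. ZFP36 hands its own target mRNAs to some of the same decay enzymes.

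Of 6 HEK293 markers, 4 (NEFL, NEFM, VIM and PAX2) were above the level of 4.5 in some group and NES and LHX1 were not. Only NEFL and VIM were above it in every group. PAX2 passed that level after induction alone, with a mean of 4.86. Mock-induced cells averaged 2.77 for PAX2, and parental cells averaged 2.59 when given doxycycline and 2.60 when given vehicle. NEFM, a neurofilament subunit, averaged 5.81 in induced cells and 3.87 in mock-induced cells of the EGFP-ZFP36 line, against 12.29 in parental doxycycline and 12.27 in parental vehicle cells, so the lines differ in a defining marker. Of 12 measured markers of blood, endothelium, fibroblasts and liver, only COL3A1 was above 4.5 in any group, at 8.17 in induced cells, against 5.09 in mock-induced cells, and the other 11 had group means of at most 2.44. The probe set of ZFP36 averaged 5.42 ± 0.49 in induced cells, 5.36 ± 0.43 in mock-induced cells, 3.76 ± 0.58 in parental doxycycline cells and 3.45 ± 0.56 in parental vehicle cells (SD, n = 5 each), and the sources used here do not say if it reads the transgene. The spiked poly-A controls read 8.80 on the induced arrays, against 8.43 on the mock-induced ones (two-sided exact permutation p = 0.0238), and the 3′ minus 5′ log2 difference of actin was 1.31 on the induced arrays, against 1.52 on the mock-induced ones (exact permutation p = 0.0476). The part of these controls in the results below was tested only by centring the arrays on them. Parental vehicle replicates 3 and 4 correlated least with their group (mean r of 0.9893 and 0.9889, against at least 0.9924 for every other array).

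After induction AGO1, AGO3, DROSHA, TNRC6A and TNRC6B each had probe sets that rose, while 1 DICER1 probe set and 2 AGO2 probe sets shared with CASC7 fell. Of the 27 tested probe sets, 11 rose in induced relative to mock-induced EGFP-ZFP36 cells, 3 fell and 13 did not pass (limma, Bonferroni-adjusted p under 0.01 over 18650 probe sets). In this comparison 44% of all tested probe sets passed (22.1% rose and 21.9% fell), against 51.9% of the tested probe sets of these genes. Without the AGO2 probe sets also listed under CASC7, 11 of 25 rose and 1 fell. The median log2 difference was 0.71 over the 27 probe sets and 0.12 over all tested probe sets. Of the 27, 21 did not overlap between the groups, against 76.9% of all tested probe sets. These are bulk RNA measurements, so fewer cells of a kind and less RNA per cell cannot be told apart. Centring the arrays on the poly-A controls moved the median of all tested probe sets to −0.24 and the split over all probe sets to 2399 higher and 5813 lower, against 4126 higher and 4077 lower as deposited, and then 4 of the 27 rose (both AGO1 probe sets, AGO3 219426_at and TNRC6B 213254_at) and 4 fell. With a separate spread for each group the differences stayed as they were, but 2 rises (AGO1 218287_s_at and TNRC6B 213254_at) and 2 falls (AGO2 213310_at and 225569_at) still passed. Over all tested probe sets that setting left 1925 higher and 1805 lower.

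**Figure D1:**
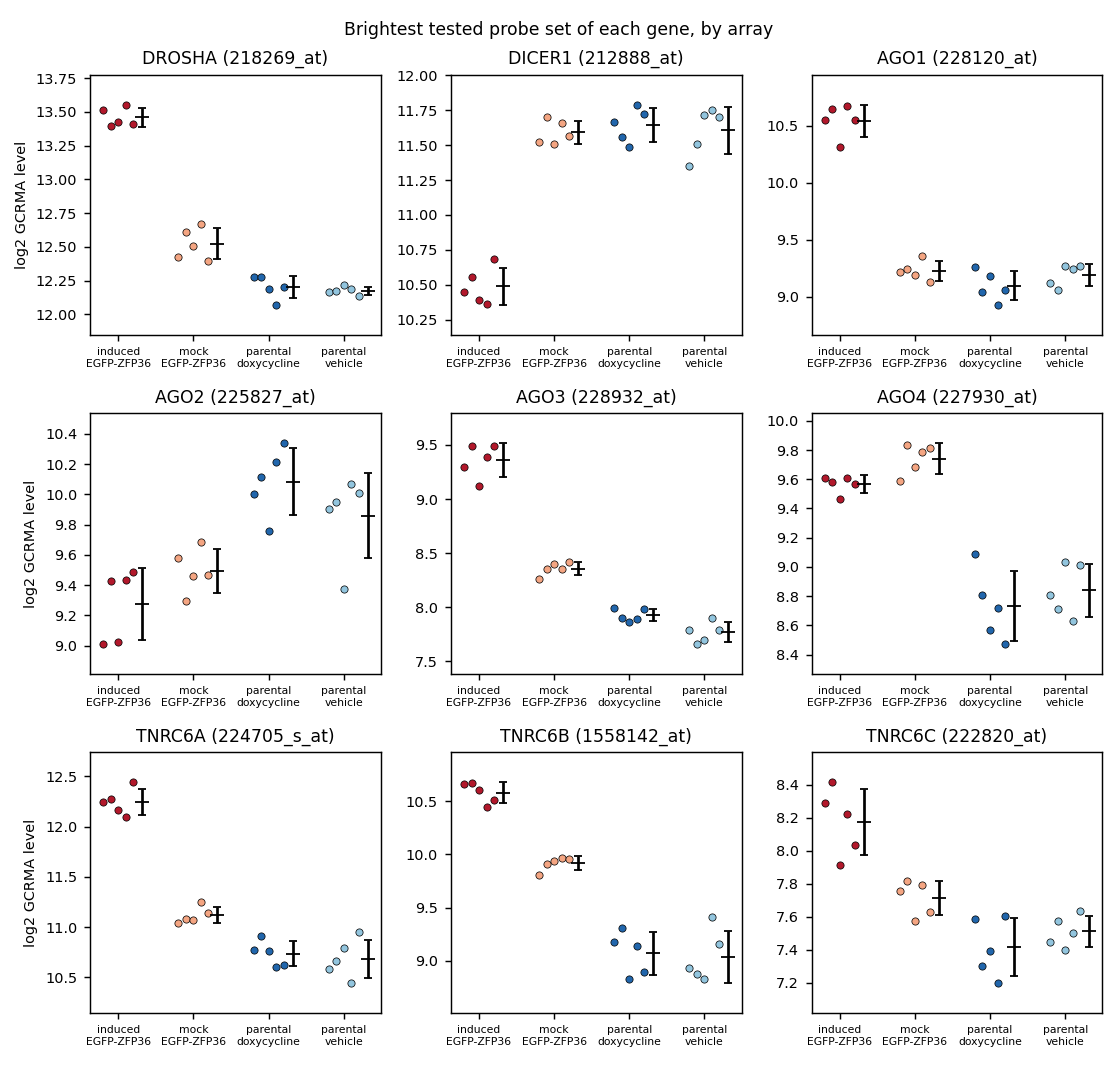
Log2 GCRMA level (vertical axis, a different range in each panel) of the brightest tested probe set of each gene in the 4 groups. Circles are the 5 arrays of a group, with the mean and SD beside them in black. DROSHA, AGO1, AGO3, TNRC6A and TNRC6B lie highest in induced EGFP-ZFP36 cells, DICER1 lies lowest there, and the AGO2 and AGO4 probe sets shown overlap between induced and mock-induced cells.

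DROSHA, the nuclease that starts microRNA maturation, is read by 1 probe set, 218269_at. Its log2 level was 13.52, 13.40, 13.43, 13.55 and 13.41 in induced cells, against 12.43, 12.61, 12.51, 12.67 and 12.40 in mock-induced cells. The groups did not overlap, and the lowest induced array stood above the highest mock-induced one. DROSHA rose by 0.94 on the log2 scale (SE 0.06, adjusted p = 4.76e-04), a 1.92-fold difference. In parental cells it averaged 12.20 ± 0.08 with doxycycline and 12.18 ± 0.03 with vehicle (SD, n = 5 each). It did not pass after poly-A centring, where the difference was 0.58.

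DICER1, which cuts the precursor hairpin, has 6 probe sets, of which 3 were above the filter. Its brightest, 212888_at, read 10.45, 10.56, 10.39, 10.36 and 10.68 in induced cells, against 11.52, 11.70, 11.51, 11.66 and 11.57 in mock-induced cells. All 5 induced arrays were below all 5 mock-induced arrays, and the level fell by 1.10 on the log2 scale (SE 0.07, adjusted p = 2.38e-04, 2.15-fold). The other probe sets, 213229_at (−0.25, SE 0.09) and 206061_s_at (−0.70, SE 0.12), did not pass (adjusted p = 1 each), although their groups did not overlap either. Both fell less than 212888_at in the direct comparison of probe sets (exact permutation test, Benjamini-Hochberg-adjusted p = 0.0143 and 0.026).

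AGO1, an Argonaute that binds guide microRNAs, rose at both tested probe sets. The level of 228120_at was 10.55, 10.65, 10.31, 10.67 and 10.55 in induced cells, against 9.21, 9.24, 9.19, 9.36 and 9.13 in mock-induced cells. That is a gap of about 1 log2 unit between the nearest arrays of the groups, and a difference of 1.32 (SE 0.07, adjusted p = 5.34e-05, 2.50-fold). The second probe set, 218287_s_at, rose by 1.53 (SE 0.07, adjusted p = 3.18e-06, 2.88-fold). The parental groups averaged 9.09 with doxycycline and 9.19 with vehicle at 228120_at, close to the mock-induced mean of 9.22.

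AGO3, which lies just downstream of AGO1 on chromosome 1 with 185 bases between the annotated genes, rose as well. Its probe set 219426_at had the largest rise among the 27: 8.96, 8.95, 8.57, 8.84 and 8.73 in induced cells, against 7.07, 6.85, 6.72, 7.07 and 6.52 in mock-induced cells. The groups did not overlap and differed by 1.96 (SE 0.12, adjusted p = 1.06e-04, 3.90-fold). The brightest AGO3 probe set, 228932_at, read 9.29, 9.49, 9.12, 9.39 and 9.49 in induced cells, against 8.26, 8.36, 8.40, 8.36 and 8.42 in mock-induced cells, a rise of 1.00 (SE 0.08, adjusted p = 0.00106). The remaining AGO3 probe sets did not pass, with differences of 1.01 at 241091_at (adjusted p = 0.401) and 0.67 at 235782_at (adjusted p = 1), and neither overlapped between the groups.

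The study's PAR-CLIP table, made with a different, FLAG/HA-tagged line, was searched under the current names of the 10 genes and EIF2C3, an older AGO3 name. Other older names were not searched, so sites in the other genes can have been missed. The search gave a ZFP36 binding site in AGO3. It is shown because it is a site of the overexpressed protein in an Argonaute transcript. It lies in an intron at chr1:36435121-36435144 (hg19, plus strand), and the capitals mark the AUUUA pentamer, written as DNA, of AU-rich elements. The paper reports that, by partial correlation, sites outside 3′ UTRs, introns among them, added nothing independent to explaining the expression changes. Whether this site bears on the level of AGO3 was not tested.
AGO3 intronic site: tatattttcttttactctATTTAt

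AGO4, the third Argonaute gene of the chromosome 1 cluster, gave no call. Its only tested probe set, 227930_at, read 9.61, 9.58, 9.46, 9.61 and 9.57 in induced cells, against 9.59, 9.84, 9.69, 9.78 and 9.82 in mock-induced cells. The groups overlapped and differed by −0.18 (SE 0.06, adjusted p = 1). The 3 AGO1, AGO3 and AGO4 neighbours therefore did not all pass the test in this comparison.

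AGO2, the Argonaute that can itself cut a fully paired target, gave unlike values at its 3 tested probe sets. The one that names AGO2 alone, 225827_at, read 9.01, 9.42, 9.02, 9.43 and 9.48 in induced cells, against 9.58, 9.30, 9.46, 9.68 and 9.47 in mock-induced cells. These groups overlapped, and the difference of −0.22 (SE 0.11) did not pass (adjusted p = 1). The probe set 213310_at, also listed under CASC7, read 6.77, 6.70, 6.44, 6.46 and 6.40 in induced cells, against 9.41, 9.35, 9.39, 9.54 and 9.29 in mock-induced cells. It fell by 2.84 (SE 0.08, adjusted p = 6.38e-08), a 7.18-fold difference and the largest change in either direction among the 27 probe sets. The third, 225569_at, likewise listed under CASC7, fell by 1.85 (SE 0.08, adjusted p = 2.2e-06, 3.61-fold). Which AGO2 transcripts the last 2 probe sets read was not tested. The AGO2 probe set under the filter, 1561042_at, read 2.19 on every induced array, against 2.29 to 3.42 on the mock-induced ones, with no overlap.

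**Figure D2:**
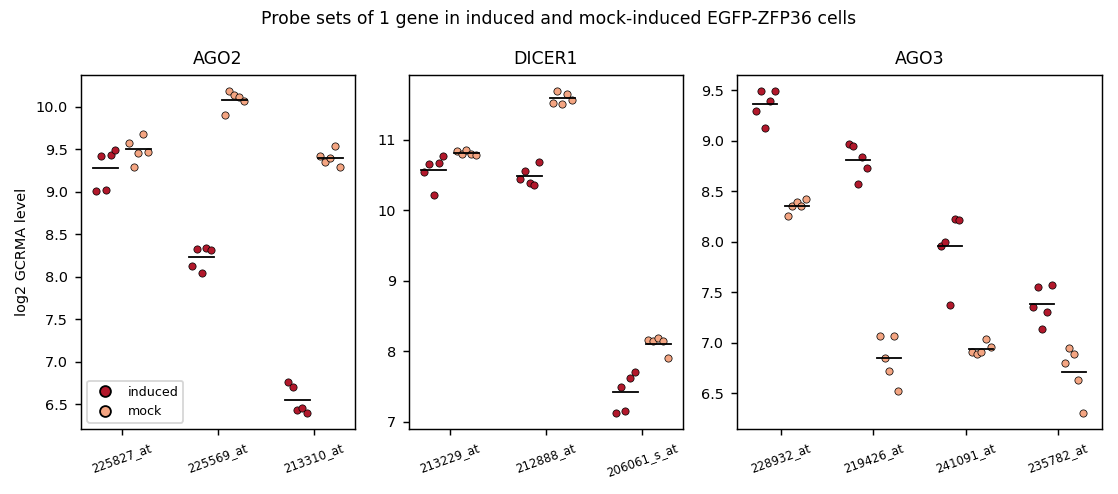
Log2 GCRMA levels of each tested probe set of AGO2, DICER1 and AGO3 in induced (left) and mock-induced (right) EGFP-ZFP36 cells. Circles are the 5 arrays of a group and black lines are their means. AGO2 225827_at overlapped between the groups while 213310_at fell by 2.84, and AGO3 219426_at rose by 1.96 against 1.00 at 228932_at.

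Probe sets of a gene were compared directly, since they can read different ends or isoforms of its transcripts. Each array's level at the brightest probe set was set against each other tested probe set of that gene, which gave 18 pairs. In 11 pairs the change differed between the probe sets (exact permutation test over 5 and 5 arrays, two-sided, Benjamini-Hochberg-adjusted p under 0.05 over the 18 pairs), and in none of these were the changes of opposite sign. The widest gap was 2.62 between AGO2 225827_at and 213310_at. The next was 1.63, between AGO2 225827_at and 225569_at. AGO3 219426_at rose by 0.96 more than 228932_at, and TNRC6B 213254_at by 0.90 more than 1558142_at. With 5 arrays against 5, the smallest p that this test can give is 0.00794, and no pair passed an adjusted p of 0.01.

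The TNRC6 scaffolds, which link Argonautes to the deadenylases, rose at 6 of 13 tested probe sets and fell at none. TNRC6A rose at 3 of 4. Its brightest probe set, 224705_s_at, read 12.25, 12.28, 12.17, 12.09 and 12.44 in induced cells, against 11.04, 11.09, 11.07, 11.25 and 11.14 in mock-induced cells. The groups did not overlap and differed by 1.13 (SE 0.07, adjusted p = 1.69e-04, 2.19-fold). TNRC6A 234734_s_at rose by 1.24 and 224704_at by 0.71 (adjusted p = 1.48e-04 and 0.00327), and 243834_at differed by 0.20 with overlapping groups (adjusted p = 1).

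TNRC6B rose at 3 of its 6 probe sets. The largest rise was at 213254_at, with 9.13, 9.31, 9.06, 9.29 and 9.35 in induced cells, against 7.64, 7.55, 7.70, 7.78 and 7.63 in mock-induced cells. The groups stood well apart, with a difference of 1.57 (SE 0.07, adjusted p = 5.32e-06, 2.97-fold). TNRC6B 238468_at rose by 1.14 and 1558142_at by 0.67 (adjusted p = 0.00319 and 0.0057). The others, 230779_at (1.08), 229036_at (0.91) and 228998_at (0.98), did not pass (adjusted p = 0.0192, 0.0854 and 1), and every mock-induced array of 228998_at was under 4.5.

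TNRC6C gave no call at its 3 tested probe sets. Its brightest, 222820_at, read 8.29, 8.41, 7.91, 8.23 and 8.04 in induced cells, against 7.76, 7.81, 7.58, 7.79 and 7.63 in mock-induced cells. The arrays did not overlap, but the difference of 0.46 (SE 0.10) did not pass (adjusted p = 1). The differences at 233359_at and 1569482_at were 0.01 and 0.17. After poly-A centring these 2 and TNRC6A 243834_at had negative differences (−0.35, −0.19 and −0.16).

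Of the called probe sets, 3 lay near the threshold. With 1 array left out at a time, TNRC6B 1558142_at still passed in 1 of 10 fits, and TNRC6A 224704_at and TNRC6B 238468_at in 2 of 10 each. Their differences hardly moved in these fits, which gave 0.64 to 0.70 for TNRC6B 1558142_at, 0.67 to 0.74 for TNRC6A 224704_at and 1.05 to 1.20 for TNRC6B 238468_at. The other 11 called probe sets passed in all 10 fits.

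Doxycycline alone did not change any of these genes detectably in parental HEK293 cells. None of the 27 probe sets passed in either direction, and none of all 18650 did (0%, limma with Bonferroni adjustment, and 0 with Benjamini-Hochberg adjustment, with 414 at an unadjusted p under 0.05). Of the 27, 1 had an unadjusted limma p under 0.05, AGO3 228932_at, with 7.99, 7.90, 7.87, 7.89 and 7.98 in doxycycline cells, against 7.79, 7.66, 7.70, 7.90 and 7.79 in vehicle cells (difference 0.16, SE 0.06, exact permutation p = 0.0317). No probe set of these genes separated the 2 parental groups, and 0.257% of all tested probe sets did.

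The widest parental differences were at DICER1, 0.46 (SE 0.34) at 206061_s_at and 0.41 (SE 0.39) at 213229_at. There the spread was large: 213229_at read 10.83, 11.39, 10.62, 11.40 and 11.07 with doxycycline, against 10.86, 10.74, 9.17, 11.64 and 10.82 with vehicle. Vehicle replicate 3, one of the arrays that correlated least with its group, was the lowest at both probe sets. A change of this size was not detectable there.

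**Figure D3:**
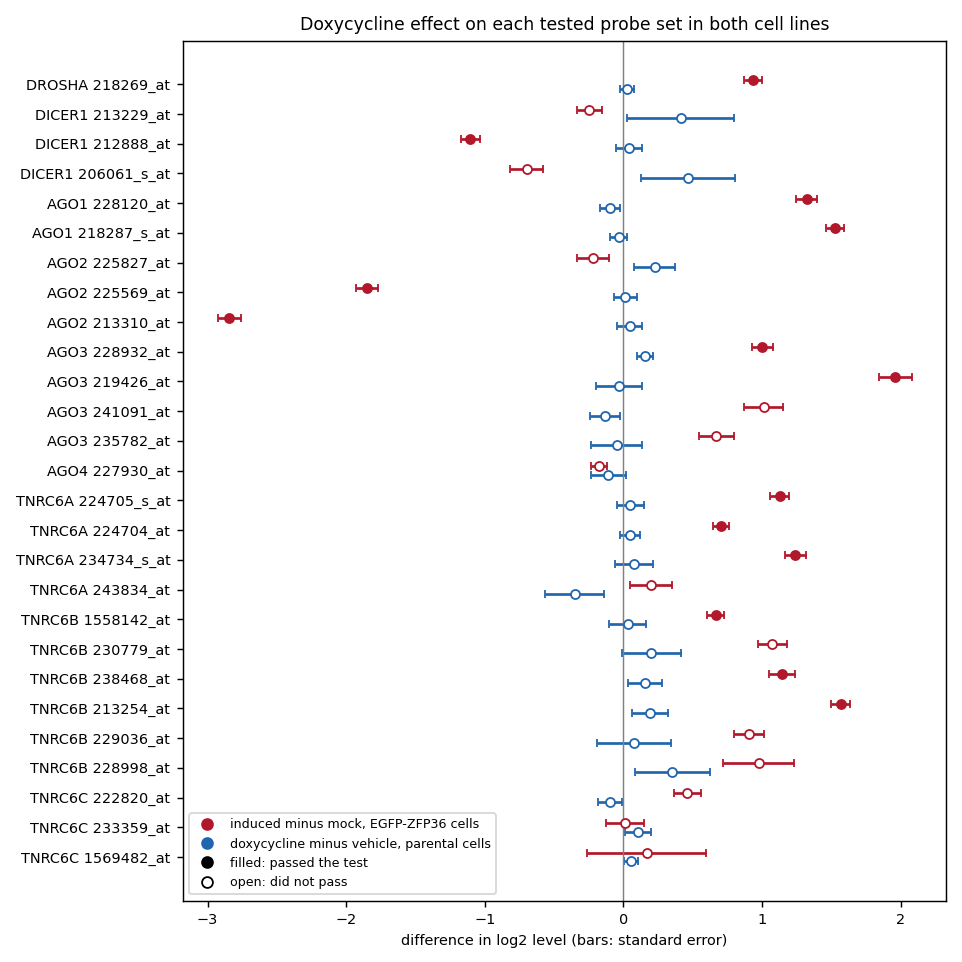
Differences in log2 level with limma standard errors for the 27 tested probe sets: induced minus mock-induced EGFP-ZFP36 cells in red, and doxycycline minus vehicle in parental cells in blue. Filled circles passed the Bonferroni threshold. Red circles run between −2.84 and 1.96, and blue ones between −0.35 and 0.46 with none filled.

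The doxycycline effect differed between the lines at 10 of the 27 probe sets (interaction term over all 20 arrays, Bonferroni-adjusted p under 0.01), while 39.7% of all tested probe sets passed (19.1% higher and 20.6% lower). It was higher in EGFP-ZFP36 than in parental cells at 7, in AGO1 (1.42 and 1.56), AGO3 (1.99 and 0.84), TNRC6B (1.38), TNRC6A (1.08) and DROSHA (0.91). It was lower at 3, in AGO2 (−2.89 and −1.87) and DICER1 (−1.14). Without the AGO2 probe sets also listed under CASC7, 7 of 25 were higher and 1 was lower. Of the 14 probe sets called after induction, 4 did not pass here, and all 4 belong to TNRC6A or TNRC6B (TNRC6A 224704_at and 234734_s_at, TNRC6B 1558142_at and 238468_at). After centring on the poly-A controls 1 probe set was higher and 2 were lower, although the estimates were about the same (1.41 at AGO1 228120_at and 0.91 at DROSHA).

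Before induction 1 probe set of these genes separated the EGFP-ZFP36 cultures from the parental cultures past the threshold. In mock-induced against parental vehicle cells, 1 of 27 probe sets rose and none fell, while 17.1% of all tested probe sets passed (10.2% rose and 6.88% fell). The 1 rise was TNRC6A 224704_at, with 10.69, 10.68, 10.65, 10.69 and 10.58 in mock-induced cells, against 9.89, 9.99, 10.07, 10.00 and 10.09 in parental vehicle cells. The groups did not overlap and differed by 0.65 (SE 0.05, adjusted p = 0.00244). That call was lost without mock-induced replicate 1, 2, 3 or 4, or parental vehicle replicate 2 or 4, and with the arrays centred on their medians or on either set of controls. It was also lost with the replicate number as a block (limma, adjusted p = 0.61) and with a separate spread for each group (adjusted p = 0.0365). The difference at TNRC6A 224704_at stayed between 0.62 and 0.67 with 1 array left out and between 0.54 and 0.65 under the other alternatives.

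AGO4 differed between the uninduced lines by more than it did upon induction. It read 9.59, 9.84, 9.69, 9.78 and 9.82 in mock-induced cells, against 8.81, 8.71, 9.03, 8.63 and 9.02 in parental vehicle cells. The arrays did not overlap, but the difference of 0.90 (SE 0.09) did not pass (adjusted p = 0.0218), nor did AGO3 228932_at at 0.59 (adjusted p = 0.0192) or TNRC6B 1558142_at at 0.88 (adjusted p = 0.125). TNRC6C 1569482_at averaged 4.61 in mock-induced and 3.31 in parental vehicle cells, where every array was under 4.5 (adjusted p = 0.408). In total 10 of the 27 probe sets did not overlap between these groups, against 58.5% of all tested probe sets.

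Induced EGFP-ZFP36 cells were also set against parental cells with doxycycline, which received the same drug. This comparison shares its induced arrays with the one above, so it is not separate evidence. Of 27 probe sets, 12 rose and 3 fell, while 41.3% of all tested probe sets passed (21.9% rose and 19.4% fell), and 23 did not overlap between the groups, against 75.2% of all. The rises included TNRC6B 230779_at, which did not pass against mock-induced cells, with 10.27, 10.48, 10.21, 10.35 and 10.73 in induced cells, against 8.78, 9.03, 8.19, 8.76 and 8.81 in parental doxycycline cells (1.70, SE 0.15, adjusted p = 0.00533). DROSHA differed by 1.26, AGO1 228120_at by 1.45, AGO2 213310_at by −2.92 and DICER1 212888_at by −1.16, against 0.94, 1.32, −2.84 and −1.10 relative to mock-induced cells.

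Promoter sequences are shown for the 5 genes with a called rise after induction. They come from RefSeq (GRCh38.p14) and run from 250 bases before to 50 bases after a transcription start. Capitals mark CCAAT and CCGGAAG and their reverse complements ATTGG and CTTCCGG. DROSHA has 3 CCAAT matches and TNRC6B has 5, AGO1 and TNRC6A have 1 each and AGO3 has none. CCGGAAG, an ETS-type motif, has 1 match in AGO3, 2 in TNRC6A and 1 in TNRC6B.
DROSHA, chr5:31532044-31532343, minus strand: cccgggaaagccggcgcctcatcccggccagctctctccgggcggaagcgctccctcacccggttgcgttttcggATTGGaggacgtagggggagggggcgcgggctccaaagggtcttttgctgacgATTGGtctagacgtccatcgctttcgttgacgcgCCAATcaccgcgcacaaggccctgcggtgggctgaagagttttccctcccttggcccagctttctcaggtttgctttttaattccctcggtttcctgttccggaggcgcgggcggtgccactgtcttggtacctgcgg
AGO1, chr1:35882959-35883258, plus strand: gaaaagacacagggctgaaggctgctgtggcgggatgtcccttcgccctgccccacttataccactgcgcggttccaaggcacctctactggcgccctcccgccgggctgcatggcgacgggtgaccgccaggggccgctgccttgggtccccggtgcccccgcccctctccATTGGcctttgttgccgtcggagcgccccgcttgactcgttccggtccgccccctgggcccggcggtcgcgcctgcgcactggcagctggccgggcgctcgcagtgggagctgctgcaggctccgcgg
AGO3, chr1:35930855-35931154, plus strand: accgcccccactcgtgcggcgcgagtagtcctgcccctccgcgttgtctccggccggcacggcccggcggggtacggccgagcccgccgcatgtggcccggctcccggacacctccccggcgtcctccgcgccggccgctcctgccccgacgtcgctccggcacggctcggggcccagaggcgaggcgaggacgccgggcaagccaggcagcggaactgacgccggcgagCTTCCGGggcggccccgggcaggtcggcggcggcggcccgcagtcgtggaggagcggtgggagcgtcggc
TNRC6A, chr16:24729401-24729700, plus strand: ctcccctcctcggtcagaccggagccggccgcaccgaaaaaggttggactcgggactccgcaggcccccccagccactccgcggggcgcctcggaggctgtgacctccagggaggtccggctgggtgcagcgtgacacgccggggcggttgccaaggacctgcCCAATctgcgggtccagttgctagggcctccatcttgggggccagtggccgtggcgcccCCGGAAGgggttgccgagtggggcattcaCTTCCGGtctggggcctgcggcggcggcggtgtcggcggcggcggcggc
TNRC6B, chr22:40044584-40044883, plus strand: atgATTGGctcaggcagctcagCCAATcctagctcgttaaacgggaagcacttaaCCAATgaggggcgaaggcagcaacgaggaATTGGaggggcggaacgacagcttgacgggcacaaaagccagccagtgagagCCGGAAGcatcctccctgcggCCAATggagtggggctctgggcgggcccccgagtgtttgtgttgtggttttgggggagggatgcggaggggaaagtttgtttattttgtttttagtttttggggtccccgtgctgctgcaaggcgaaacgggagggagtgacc

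The motif counts covered 16 promoters of 9 of the 10 genes. Promoters on chromosome 8, where AGO2 lies, were left out of the member counts, so these shares do not describe AGO2. A CCAAT match on either strand was found in 8 of the 16 (50%) and in 34.6% of all 35116 promoters. The 8 belong to 7 genes, among them DICER1, DGCR8 and TNRC6C, which had no called rise. Of the motifs scanned but not marked, GGGCGG (the GC box) was found in 11 of the 16 (68.8%) and in 45% of all promoters. CCGGAAG was found in 3 of the 16 (18.8%; AGO3, TNRC6A and TNRC6B) and in 10.3% of all promoters. None of the 16 promoters held TATAAA on either strand, against 11.5% of all. A match is a description of the letters and not evidence of a bound factor.

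Genes that work with these proteins were taken from a list of 64 in 4 roles, each represented by its brightest probe set, of which 59 were tested. Between induced and mock-induced EGFP-ZFP36 cells 15 rose, 10 fell and 34 did not pass, with a median log2 difference of 0.002. Over all 10839 genes tested at their brightest probe set, 48% passed in the same fit (26.5% rose and 21.5% fell), with a median of 0.20. Other tested probe sets of the gene had a difference of opposite sign for 2 of the 15 rises (TARBP2 and CNOT9) and 2 of the 10 falls (SMAD2 and DCP2), and those of CNOT9 ranged from −3.29 to 1.18. The silencing effectors and P-body proteins had 10 rises and 2 falls among 20 genes, with a median of 0.77. The loading and turnover factors of Argonaute had 1 rise and 4 falls among 13, with a median of −0.23.

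Among the partners of primary transcript processing, 1 rose and 2 fell of 14. ADAR, which edits adenosines in double-stranded RNA, rose by 1.28 (12.93 in induced and 11.64 in mock-induced cells, adjusted p = 4.67e-05). DDX5, a helicase of the DROSHA complex, fell by 2.74 (6.86 in induced cells, against 9.61 in mock-induced cells, adjusted p = 3.69e-08), and SMAD2, a TGF-β signal transducer that can bind DDX5, by 2.43 (7.81 in induced cells, against 10.25 in mock-induced cells, adjusted p = 5.04e-09). The probe sets of SMAD2 ranged from −2.44 to 0.84. SMAD3 differed by −0.93 and did not pass (adjusted p = 0.0101).

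Of 12 export and DICER1 partners 3 rose and 2 fell. LIN28B, which blocks maturation of let-7 precursors, had the largest change among the brightest probe sets of the partners and fell by 3.01 (SE 0.06, adjusted p = 4.43e-10), with 9.22 in induced and 12.23 in mock-induced cells, an 8.06-fold difference. TARBP2, the double-stranded RNA-binding partner of DICER1, rose by 1.42 at its brightest probe set (adjusted p = 1.41e-05), but its other probe set differed by −1.16. PARN, a poly(A) ribonuclease that trims some microRNAs, rose by 0.96 (adjusted p = 8.46e-05). TRIM71, a let-7 target and ubiquitin ligase, rose by 1.14 (limma, adjusted p = 0.00137). It averaged 5.54 in induced cells, against 4.40, under the filter level, in mock-induced cells.

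CDC37, an HSP90 co-chaperone, was the 1 loading factor that rose (1.07, adjusted p = 1.95e-04). TSNAX, a subunit of the C3PO nuclease that clears the cut passenger strand, fell by 2.75 (10.70 in induced and 13.44 in mock-induced cells, adjusted p = 9.12e-09). IPO8, an importin that binds Argonautes, fell by 1.09 and the chaperone HSP90AB1 by 1.04 (adjusted p = 2.77e-05 and 1.41e-04).

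In the silencing group CNOT1, the scaffold of the CCR4-NOT deadenylase, rose by 1.53 (13.17 in induced and 11.64 in mock-induced cells, adjusted p = 3.2e-07). CNOT2, a further CCR4-NOT subunit, rose by 1.11 and EIF4ENIF1, an eIF4E-binding translational repressor found in P bodies, by 1.50 (adjusted p = 4.27e-06 and 7.02e-06). DCP2, the decapping enzyme, fell by 0.96 at its brightest probe set (adjusted p = 2.1e-05), but its probe sets ranged from −2.40 to 1.26. In mock-induced against parental vehicle cells 3 of the 59 partners rose and 4 fell, while 20.1% of all genes passed at their brightest probe set (11.3% rose and 8.81% fell). The falls were TRIM71, with 4.40 in mock-induced, under the filter level, and 8.94 in parental vehicle cells, and PNPT1, TSN and CNOT9. The rises were LSM14A (1.33, limma, adjusted p = 1.74e-05), CNOT3 and DIS3L2, whose other probe set differed by −0.43.

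**Figure D4:**
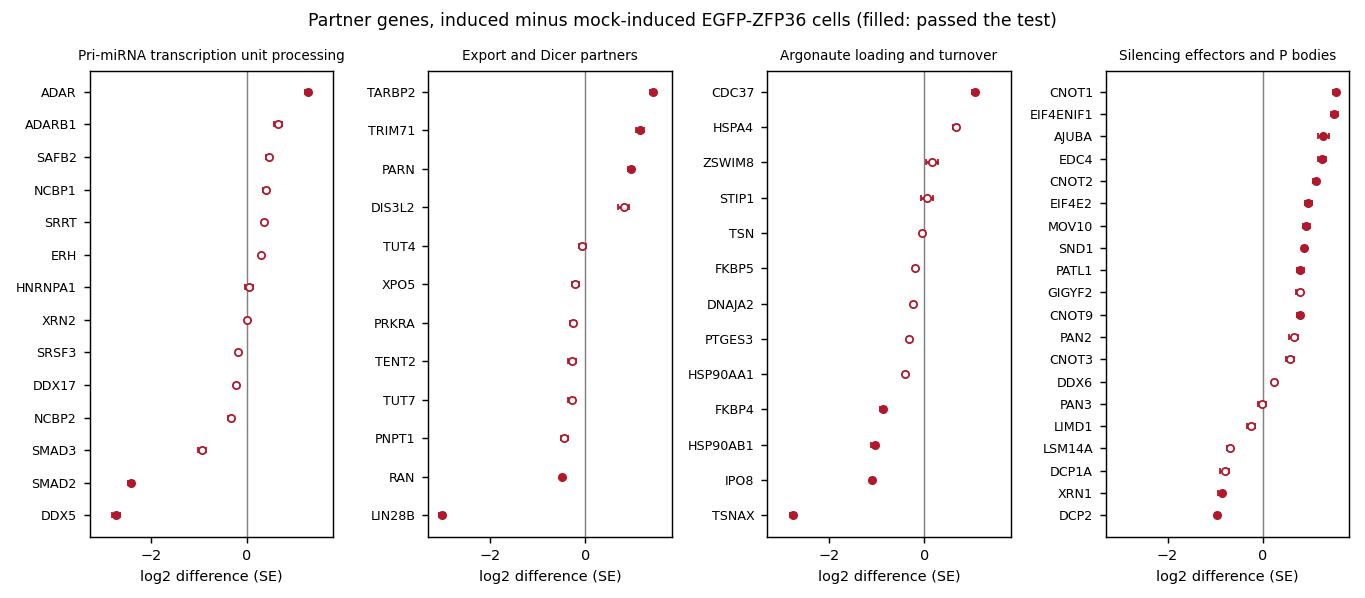
Log2 difference between induced and mock-induced EGFP-ZFP36 cells, with limma standard errors, for the brightest probe set of the 59 tested partner genes in 4 roles. Filled circles passed the Bonferroni threshold. Of the silencing effectors 10 of 20 rose, while LIN28B, TSNAX, DDX5 and SMAD2 fell by more than 2 log2 units.

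Genes whose levels over the 20 arrays were most like AGO3 219426_at were CANT1, PROSER2 and PKP4 (Pearson r = 0.974, 0.973 and 0.972). Those most like AGO2 213310_at were HNRNPA3, FERMT2 and FMC1 (r = 0.996 each). HNRNPA3 averaged 11.21 in induced cells, 14.17 in mock-induced cells, 14.31 in parental doxycycline and 14.28 in parental vehicle cells. The points share the 4 groups, so these correlations describe the group pattern and carry no test.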

How the data were processed

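The authors normalized the 20 U133 Plus 2.0 arrays with GCRMA, a background correction based on probe sequence with quantile normalization whose version is not among the sources used here, and deposited log2 values per probe set. Gene names came from the platform annotation, and 20 probe sets with several names were reduced to 1 current gene through RefSeq synonyms (GRCh38.p14). Limma 3.58.1 in R 4.3.3 (lmFit, eBayes) was fitted on the arrays of the 2 groups compared, over 18650 probe sets that name 1 gene and have a mean above 4.5 in at least 1 group, with calls at 0.01 after Bonferroni adjustment. The interaction used all 20 arrays. Filter and threshold follow the study's methods. Named are all members, up to 4 partners per role with the smallest p, and the 3 genes most like the largest called rise and fall. Members, lists and tests were chosen with earlier results of these data known. The alternatives are given below. The choice to leave out AGO2 probe sets listed under CASC7 was made after seeing the data.

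In simulated data for the induced and mock-induced groups (18650 probe sets), 2.99%, 61.2% and 81.8% of probe sets changed by 0.5, 1 and 2 log2 units were called. The number of arrays limits the precision. The methods describe experiments repeated on separate days, with parental cells treated in pairs, but the labels do not say that replicate numbers mark those days, so the replicate block is an alternative. Python 3.11.15, scipy 1.17.1 and matplotlib 3.10.9 were used.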

Additional observations from a re-analysis of the deposited data

Results flagged for a closer look

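Of 108 groups of 5 arrays examined over the tested probe sets, 7 held an array far from the other 4 by Dixon's criterion, and 5.4 would be found by chance at 1 in 20. These were AGO1 218287_s_at in mock-induced replicate 4 (8.90), AGO2 225827_at in parental vehicle replicate 3 (9.37), AGO2 213310_at in parental vehicle replicate 4 (9.77), DICER1 206061_s_at in mock-induced replicate 5 (7.91), TNRC6A 243834_at in parental vehicle replicate 4 (6.20), TNRC6C 233359_at in induced replicate 5 (6.29) and TNRC6C 1569482_at in parental doxycycline replicate 2 (3.48). Of the 7, 3 were in parental vehicle replicates 3 and 4, which also correlated least with their group.

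The doxycycline effect differed between EGFP-ZFP36 and parental cells, by the interaction test, at 10 probe sets. It was 1.42 at AGO1 228120_at, 1.56 at AGO1 218287_s_at, −1.87 at AGO2 225569_at, −2.89 at AGO2 213310_at, 0.84 at AGO3 228932_at, 1.99 at AGO3 219426_at, −1.14 at DICER1 212888_at, 0.91 at DROSHA 218269_at, 1.08 at TNRC6A 224705_s_at and 1.38 at TNRC6B 213254_at. Whether the fusion protein, the sort gate or the density of the flasks goes with these values cannot be told apart.

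DGCR8, the RNA-binding partner of DROSHA, is read only by 3 probe sets that also list MIR1306, and these entered no count. At 218650_at the level was 9.20, 8.94, 8.76, 9.01 and 8.73 in induced cells, against 8.59, 8.55, 8.40, 8.47 and 8.41 in mock-induced cells. The arrays did not overlap, and the difference was 0.44 (exact permutation p = 0.00794, two-sided, the smallest that 5 against 5 arrays can give). At 91617_at it was also 0.44, with arrays that did not overlap (exact permutation p = 0.00794). At 219811_at the difference was 0.28, with overlapping arrays. DGCR8 and MIR1306 cannot be told apart in these signals.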

How the results depend on the processing

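Of 973 results of single called probe sets under alternatives, 837 stayed past the threshold, 136 no longer passed and 0 reversed. Alternatives such as the replicate block, the separate spread and the Benjamini-Hochberg adjustment leave the differences as they are. Their directions therefore could not reverse, unlike those after centring or leaving out an array. The counts of calls moved, and why was not tested unless stated. The 0 calls with doxycycline in parental cells stayed 0 in every alternative. In this paragraph and the next, induced against mock-induced EGFP-ZFP36 cells comes first, then induced against parental doxycycline cells, the difference of the doxycycline effects, and mock-induced against parental vehicle cells.

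With the replicate number as a block, which leaves fewer degrees of freedom, 4 probe sets of these genes rose in the first comparison (11 without the block) and 2 fell (3 without it), and 6 of the partner genes rose and 5 fell. DROSHA 218269_at and DICER1 212888_at kept their differences of 0.94 and −1.10 but no longer passed (limma, adjusted p = 0.0362 and 0.0285). In the second 6 rose and 1 fell, in the third 4 were higher, and in the last 0 rose while 1 partner rose and 1 fell. Over all probe sets of the first comparison the block left 1964 higher and 2392 lower. Deviations of same-numbered induced and mock-induced arrays correlated between 0.01 and 0.21 and 3 of 10 arrays correlated best with their own number, so the correlations did not show that same numbers mark the pairs of a day.

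Centring on the poly-A controls gave 4 rises and 5 partner rises in the first comparison, 1 higher in the third, and 0 rises with 0 partner rises and 1 partner fall in the last. Centring on the hybridization controls gave 6 rises and 9 partner rises in the first, 3 higher in the third, and 0 rises with 1 partner rise and 1 partner fall in the last. Over all probe sets of the first comparison it left 3450 higher and 4318 lower. Of all called probe sets, 49.7% were lower in the first comparison, against 70.8% after poly-A centring; for the difference of effects 51.9% were lower, against 73.5% (poly-A) and 72.3% (hybridization); and in the last 40.3%, against 27.4% (poly-A), 29.2% (block) and 52.7% (centred on the median of the tested probe sets). Hybridization centring moved the median of all probe sets to 0.00 in the first, −0.16 in the second and −0.09 in the third. With median centring 0 rose and 7 partners fell in the last.

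A separate spread for each group gave 2 rises and 5 partner rises in the first comparison, 5 rises in the second, 4 higher in the third, and 0 rises, 1 partner rise and 2 partner falls in the last. Over all probe sets it left 1925 higher and 1805 lower in the first, and 683 and 454 in the last. Benjamini-Hochberg adjustment, a looser threshold by construction, gave 17 rises, 6 falls, 26 partner rises and 26 partner falls in the first, 20 rises and 6 falls in the second, 16 higher and 5 lower in the third, and 15 rises, 2 falls, 19 partner rises and 20 partner falls in the last. Of all tested probe sets 85.5% passed that adjustment in the first, 84.1% in the second, 77.6% in the third and 70.7% in the last. The brightest probe set of each gene, 9 tested, gave 5 rises and 1 fall in the first, 5 and 1 in the second, 4 higher and 1 lower in the third and 2 rises in the last. Over all 10839 genes of that refit, 3123 were higher and 2502 lower in the first, and 3065 and 2390 in the second. In the third these were 2792 and 2401, and in the last 1426 and 1179. The mean of all probe sets of a gene, 7 tested, gave 4 rises and 1 fall, 5 and 1, 3 higher and 1 lower, and 0 rises. Over all 9893 genes of that fit, 2695 were higher and 2302 lower in the first, and 2670 and 2169 in the second. In the third these were 2400 and 2136, and in the last 1278 and 990. Without the AGO2 probe sets also listed under CASC7, an alternative chosen after seeing the data, 1 fell in the first comparison, 1 fell in the second and 1 was lower for the difference of effects.

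With no filter on low values, 7 rose in the first comparison and 24 pairs of probe sets moved unequally (11 as reported, and 0 at an adjusted p under 0.01). Over all 38090 probe sets of that fit, 2813 were higher and 2997 lower. In the last comparison, all 20 arrays in 1 model gave 4 rises, 7 partner rises and 9 partner falls, a variance trend with robust moderation gave 2 rises, 5 partner rises and 8 partner falls, and 5 partners rose once probe sets of the _s_at and _x_at kinds were dropped.

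Leaving out 1 array at a time, the first comparison kept 8 to 12 rises, 3 to 3 falls, 10 to 14 partner rises and 8 to 9 partner falls. The second kept 9 to 11 rises and 3 to 3 falls, the third 7 to 9 higher and 3 to 3 lower, and the last 0 to 1 rises, 0 to 0 falls, 2 to 3 partner rises and 3 to 5 partner falls. The parental comparison kept 0 to 0, and 10 to 12 pairs moved unequally. The 15 probe sets under the filter, with group means of at most 4.34, were tested only where no filter was applied.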
